A study of Sus scrofa with 4 samples.

Results

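The 38 genes described here encode the enzymes that burn fatty acids in mitochondria and peroxisomes, the proteins that build peroxisomes, and a pair of regulators of both. They were taken by symbol from a given list, and a gene was kept when it had 10 or more counts in at least 1 of the 4 libraries. All 38 listed genes met this minimum, out of 18168 genes that did so in the whole data set. By compartment, 18 members act in mitochondria, 18 belong to peroxisomes (7 enzymes and 11 peroxins, the proteins of peroxisome assembly), and 2 are regulators.

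The study compared kidneys of genetically modified pigs before and after transplantation into non-human primates, to choose between 2 donor genotypes with respect to immune rejection. All donors lacked GalT, the enzyme that makes the alpha-gal sugar recognised by primate antibodies, and carried human CD39, which breaks down extracellular ATP, and human CD55, a complement inhibitor. One genotype (GalT-/-;hCD39;hCD55, here CD39/CD55) had no further modification in its label, and the other (GalT-/-;hCD39;hCD46;hCD55;TBM, here CD39/CD46/CD55/TBM) also carried human CD46, another complement inhibitor, and thrombomodulin (TBM), an anticoagulant protein of the endothelium. Each of the 4 groups is 1 library: an untransplanted kidney of each genotype, a CD39/CD55 kidney 4 weeks after transplantation, and a CD39/CD46/CD55/TBM kidney 6 weeks after transplantation. Between the transplanted kidneys, genotype, time and recipient cannot be told apart. The promoters of the transgenes, the ages of the pigs, the recipient species and the number of animals behind a library were not given in the sources used here.

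Long-chain fatty acids enter mitochondria by the carnitine shuttle. There, beta-oxidation shortens them in repeated rounds of dehydrogenation, hydration, a second dehydrogenation and thiolysis, and the electrons pass to the respiratory chain partly through the electron transfer flavoproteins. Peroxisomes shorten very long and branched chains with a parallel set of enzymes whose first step gives hydrogen peroxide, which catalase removes. Proximal tubule cells of the kidney depend on fatty acid oxidation for much of their energy and are rich in both organelles. PPARA, a nuclear receptor, and PGC-1 alpha, a coactivator encoded by PPARGC1A, are known to raise the transcription of many of these genes.

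The libraries were made from total RNA with a QuantSeq kit and held 10346863 to 14092905 counts, with 21104 to 21392 genes detected. The 38 members took 0.596% of all counts (95% exact binomial interval 0.592% to 0.601%) in the untransplanted CD39/CD55 kidney and 0.303% (0.300% to 0.307%) in the transplanted one. In the CD39/CD46/CD55/TBM kidneys their share was 0.555% (0.551% to 0.559%) untransplanted and 0.182% (0.179% to 0.185%) transplanted. These intervals, and all intervals on a single library or pair of libraries, cover counting error only. No molecular identifiers are recorded, so repeated reads of the same molecule cannot be told apart, and the intervals may be too narrow. Ribosomal RNA loci took 10.8% and 12.6% of counts in the untransplanted kidneys and 22.4% and 18.9% in the transplanted ones. Leaving out ribosomal RNA and mitochondrially encoded genes changed no call on a member.

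Part of the members share their place in the genome with another gene. In the Sscrofa11.1 annotation, 10 of the 38 overlap a neighbour, and whether strand was used in counting was not given in the sources used here. ECI1 (chromosome 3, 39750742 to 39758516) had counts of 2464, 574, 1124 and 177, in the order untransplanted and transplanted CD39/CD55, then untransplanted and transplanted CD39/CD46/CD55/TBM; every set of 4 values below keeps this order. E4F1, which overlaps it over 838 bases and encodes a transcription factor, had 2473, 570, 1104 and 172 counts. DNASE1L2, which overlaps it over 792 bases, had 2435, 536, 1088 and 160. The 3 genes thus had nearly equal counts in every library. PEX6 (chromosome 7, 38039852 to 38052384) had 301, 517, 164 and 147 counts, and GNMT, a glycine N-methyltransferase that overlaps it over 1367 bases, had 284, 509, 161 and 147. For ACAA1 the partner DLEC1 reached up to 89.2% of its count, and for PEX3 the partner FUCA2 reached up to 81.2%. The values of ECI1, PEX6, ACAA1 and PEX3 are therefore uncertain: reads of these genes and of their partners cannot be told apart here.

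**Figure D1:**
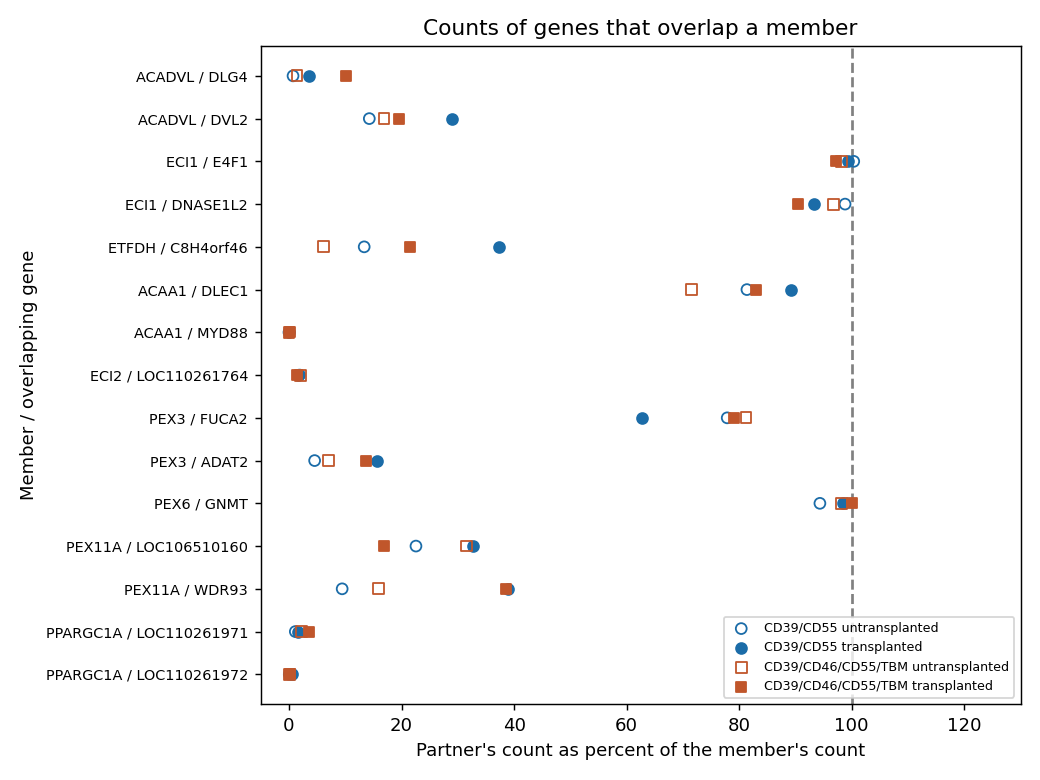
Count of each gene that overlaps a member, as a percent of that member's count (x axis), for each member and partner pair (y axis) in the 4 libraries; the dashed line marks equal counts. Both partners of ECI1 and the partner of PEX6 lie close to 100% in all 4 libraries, while the other partners shown lie below 90%.

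Across both genotypes, 12 of the 38 members fell in the transplanted kidneys and 0 rose, in edgeR's quasi-likelihood test of the 2 transplanted against the 2 untransplanted libraries with Benjamini-Hochberg adjustment over all 18168 genes. Of all genes tested, 2.71% fell and 1.24% rose. The members that fell were 8 of 18 in mitochondria, 3 of 7 peroxisomal enzymes and 1 of 11 peroxins, with 0 of 2 regulators. At an unadjusted p under 0.05, 23 members were lower and 0 higher, against 1946 and 1633 of all 18168 genes. DESeq2 called 17 lower and 0 higher, against 865 and 431 of all genes. With limma voom 14 were lower and 0 higher, against 446 and 154. With genotype as a block 23 members fell, against 1681 of all genes. In the fits without a block, each side held 1 library of each genotype, and the transplanted ones also differed in time after transplantation. The spread behind those standard errors and p-values thus mixes genotype and time with variation between animals, and is not replicate spread. The labels do not say whether kidneys of the same genotype come from separate pigs, so all these p-values measure only the spread between these samples. In whole tissue, fewer cells of a type and less RNA per cell cannot be told apart.

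In 30 of the 38 members, both transplanted libraries lay below both untransplanted ones, against 25.5% of all genes tested. PEX14 was the 1 member with both transplanted libraries above both untransplanted ones, against 26.3% of all genes. The 7 members whose groups overlapped were ACSM5, ACOX2, PEX6, PEX7, PEX16, PPARA and PPARGC1A. The median log2 fold change was -1.29 over the 38 members, -1.83 over the mitochondrial ones, -1.28 over the peroxisomal enzymes and -0.66 over the peroxins, beside 0.03 over all genes tested. Among the 28 members without an overlapping gene, 10 fell and the median was also -1.29.

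**Figure D2:**
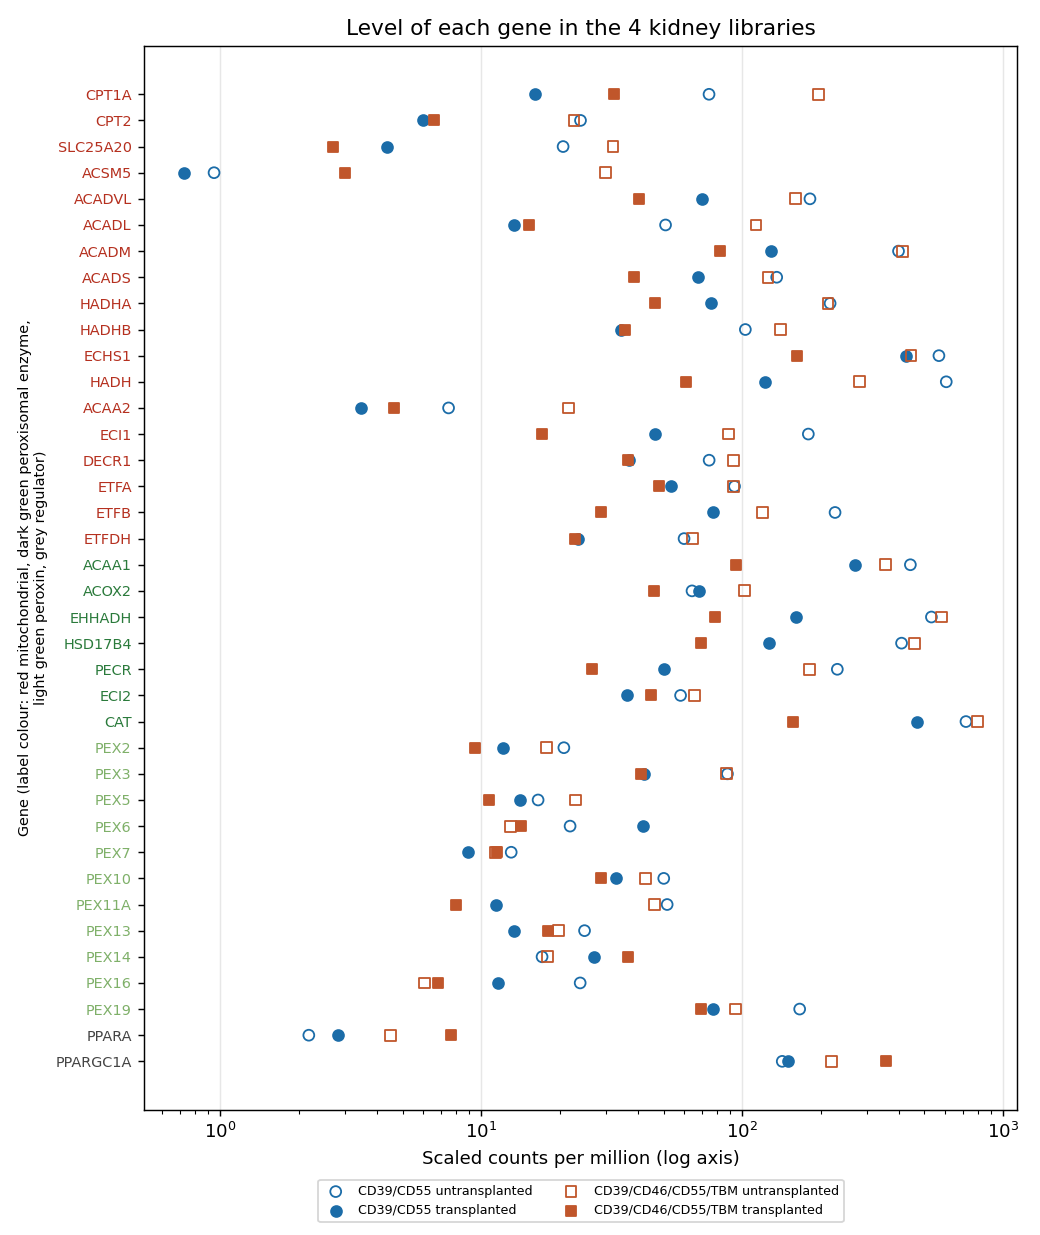
Level of each of the 38 genes (y axis) in scaled CPM (counts per 1e6 of library size after edgeR's TMM scaling) on a log axis (x axis), with open symbols for untransplanted and filled symbols for transplanted kidneys, circles for CD39/CD55 and squares for CD39/CD46/CD55/TBM. In 30 genes both filled symbols lie to the left of both open ones, and in PEX14 they lie to the right. Levels are not scaled to gene length and should not be compared between genes.

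All 3 genes of the carnitine shuttle fell. CPT1A (chromosome 2, 4250642 to 4293914), the rate-controlling enzyme that joins long-chain fatty acids to carnitine at the outer membrane, stood at 74.7, 16.1, 197 and 32.2 scaled CPM. Both transplanted kidneys lay below both untransplanted ones, and the untransplanted kidneys themselves differed 2.64-fold. Its log2 fold change was -2.49 (SE 0.55, n = 2 and 2, edgeR adjusted p = 0.0249). SLC25A20 (chromosome 13, 31523820 to 31553289), the carrier that moves acylcarnitines across the inner membrane, had 20.6, 4.36, 32.0 and 2.70 scaled CPM. Its lowest library was the CD39/CD46/CD55/TBM graft, at 28 counts. The log2 fold change of SLC25A20 was -2.89 (SE 0.49, edgeR adjusted p = 0.00788). CPT2 (chromosome 6, 159038129 to 159061327), which releases the acyl group inside the mitochondrion, had 24.0, 5.98, 22.7 and 6.57, so that kidneys of the same state lay close together in the 2 genotypes. CPT2 fell by 1.90 on the log2 scale (SE 0.43, edgeR adjusted p = 0.0288). The call on CPT1A was lost without the untransplanted CD39/CD46/CD55/TBM sample (adjusted p = 0.0757) and that on CPT2 without the untransplanted CD39/CD55 library (0.0727), while SLC25A20 kept its call in each of 10 alternative settings.

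The acyl-CoA dehydrogenases, which take the first step of each round and divide the work by chain length, were lower in both transplanted kidneys for all 4 members, and 2 of them passed the test. ACADL (chromosome 15, 112935631 to 112969381), the long-chain enzyme, had 50.9, 13.4, 113 and 15.3 scaled CPM and a log2 fold change of -2.52 (SE 0.48, edgeR adjusted p = 0.0135). It kept its call in each of the 10 alternative settings. ACADM (chromosome 6, 137541481 to 137575544), the medium-chain enzyme, had 398, 128, 411 and 82.1 and fell by 1.94 on the log2 scale (SE 0.47, edgeR adjusted p = 0.0366). The untransplanted kidneys were nearly level with each other for ACADM and differed 2.22-fold for ACADL. The call on ACADM was lost without the untransplanted CD39/CD55 library (adjusted p = 0.0688), the untransplanted CD39/CD46/CD55/TBM sample (0.0611) or the transplanted CD39/CD46/CD55/TBM sample (0.108). ACADVL, the very-long-chain enzyme, had 182, 70.2, 160 and 40.1 (log2 fold change -1.63, edgeR adjusted p = 0.063). ACADS, the short-chain enzyme, had 136, 67.9, 126 and 38.6 (-1.29, adjusted p = 0.123). Both passed the test without the transplanted CD39/CD55 library (adjusted p = 0.00784 and 0.0242).

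HADHA and HADHB encode the 2 chains of the trifunctional protein, which carries out the later steps for long chains, and lie next to each other on chromosome 3 with 221 bases between them (HADHB at 112712894 to 112753121, HADHA at 112753343 to 112797627). HADHA stood at 217, 76.1, 213 and 46.2 scaled CPM, and HADHB at 103, 34.5, 140 and 35.6. In both genes the transplanted libraries lay below the untransplanted ones, with similar log2 fold changes of -1.82 (SE 0.45, edgeR adjusted p = 0.0417) and -1.79 (SE 0.42, adjusted p = 0.0322). HADHA lost its call without the untransplanted CD39/CD55 library (adjusted p = 0.0898), the untransplanted CD39/CD46/CD55/TBM sample (0.0589) or the transplanted CD39/CD46/CD55/TBM sample (0.143). HADHB lost its call without the untransplanted CD39/CD46/CD55/TBM sample (0.103).

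For shorter chains separate enzymes take these steps, and they differed in size of change. HADH (chromosome 8, 113952561 to 114005510), the hydroxyacyl-CoA dehydrogenase, had 606, 122, 281 and 61.1 scaled CPM and a log2 fold change of -2.28 (SE 0.55, edgeR adjusted p = 0.0368). Each transplanted kidney held about the same fraction of its untransplanted counterpart, with log2 ratios of -2.31 and -2.20, although the genotypes differed in level. Its call was lost without the untransplanted CD39/CD55 library (adjusted p = 0.187) or the transplanted CD39/CD46/CD55/TBM sample (0.0626). ECHS1, the enoyl-CoA hydratase, had 568, 424, 444 and 162 (-0.79, SE 0.53, edgeR adjusted p = 0.437). Only the CD39/CD46/CD55/TBM graft stood far below the other 3 libraries for ECHS1. ACAA2, the thiolase, had 7.50, 3.47, 21.6 and 4.64 (-1.84, edgeR adjusted p = 0.0909) and passed the test without the untransplanted CD39/CD55 library (0.0077) or the transplanted CD39/CD46/CD55/TBM sample (0.0486).

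The remaining mitochondrial members did not pass the test. DECR1, which reduces double bonds of unsaturated chains, stood at 74.7, 36.8, 92.6 and 36.4 scaled CPM (log2 fold change -1.19, edgeR adjusted p = 0.12). ECI1, which moves such double bonds and whose counts are uncertain, had -2.08 (adjusted p = 0.0531), and passed without the transplanted CD39/CD55 library (0.000213) or the untransplanted CD39/CD46/CD55/TBM sample (0.0027). The electron transfer flavoprotein chains ETFA and ETFB and their dehydrogenase ETFDH, which passes the electrons to ubiquinone, were lower in both transplanted kidneys. ETFDH had 59.9, 23.4, 64.6 and 23.0 (-1.42, adjusted p = 0.0656), with the same-state libraries almost equal. ETFA had 93.5, 53.5, 93.0 and 48.0 (-0.88, adjusted p = 0.245). ETFB had 227, 77.0, 119 and 28.7 (-1.71, adjusted p = 0.0997) and passed without the transplanted CD39/CD55 library (0.0012) or the untransplanted CD39/CD46/CD55/TBM sample (0.0223).

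ACSM5 (chromosome 3, 25393121 to 25422551), a medium-chain acyl-CoA synthetase, behaved unlike the other mitochondrial members. Its counts were 13, 9, 380 and 31, so that 1 library, the untransplanted CD39/CD46/CD55/TBM kidney, stood far above the other 3. The groups overlapped, and the log2 fold change of -3.07 (SE 1.10, edgeR adjusted p = 0.143) rested on that library: without it the value was 0.95 (adjusted p = 0.714). Leaving out any other library gave an adjusted p below the threshold of 0.05, from 3.2e-07 without the untransplanted CD39/CD55 kidney to 0.0262 without the transplanted CD39/CD55 kidney. The ACSM genes are close relatives, and how reads matching several of them were counted was not given in the sources used here.

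Of the 7 peroxisomal enzymes, 3 fell, namely EHHADH, HSD17B4 and PECR. EHHADH (chromosome 13, 123104085 to 123162119), the bifunctional enzyme induced through PPARA, had 532, 161, 580 and 78.4 scaled CPM. HSD17B4 (chromosome 2, 123313445 to 123401386), the bifunctional enzyme for branched chains and bile acid precursors, had 408, 127, 458 and 69.8. In both genes the untransplanted kidneys were close to each other and the CD39/CD46/CD55/TBM graft was the lowest. EHHADH fell by 2.21 on the log2 scale (SE 0.51, edgeR adjusted p = 0.0298) and HSD17B4 by 2.14 (SE 0.49, adjusted p = 0.0288). Without the transplanted CD39/CD46/CD55/TBM library these calls were lost (adjusted p = 0.0785 and 0.0783), leaving 2 peroxisomal members that fell in place of 4. PECR (chromosome 15, 118296359 to 118335886), a trans-2-enoyl-CoA reductase, had 232, 50.1, 182 and 26.7 and a log2 fold change of -2.43 (SE 0.48, edgeR adjusted p = 0.0155), and it kept its call in each of the 10 alternative settings.

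The other 4 peroxisomal enzymes did not pass the test over both genotypes. CAT (chromosome 2, 26493664 to 26533881), the catalase that removes hydrogen peroxide, stood at 721, 468, 801 and 157 scaled CPM (log2 fold change -1.28, SE 0.56, edgeR adjusted p = 0.225). On the log2 scale, the transplanted CD39/CD55 kidney was nearer to the untransplanted kidneys than to the other transplanted one. ACAA1, the peroxisomal thiolase, had 441, 271, 354 and 94.5 (-1.12, adjusted p = 0.269), with the counts of DLEC1 alongside. CAT and ACAA1 passed the test without the transplanted CD39/CD55 library (adjusted p = 0.00891 and 0.013). ACOX2 (chromosome 13, 40220952 to 40255967), the oxidase for branched chains and bile acid precursors, had 64.3, 68.6, 102 and 45.8 (-0.54, adjusted p = 0.518), and its groups overlapped. ECI2, a peroxisomal enoyl-CoA isomerase, had 58.1, 36.2, 65.9 and 44.7 (-0.62, adjusted p = 0.416).

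Of the 11 peroxins, PEX11A alone fell. PEX11A (chromosome 7, 55256239 to 55264253), which promotes the division of peroxisomes, had 51.6, 11.4, 46.3 and 8.02 scaled CPM. Both transplanted kidneys were several-fold below both untransplanted ones, and the genotypes were close within each state. Its log2 fold change was -2.33 (SE 0.43, edgeR adjusted p = 0.0119), and its call held in each of the 10 alternative settings. PEX11A overlaps WDR93 over 14 bases and an uncharacterised locus over 173 bases, whose counts reached up to 39.0% and 32.6% of its own.

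The peroxins that form the import machinery had smaller values, none past the test. PEX5, the receptor for most matrix proteins, stood at 16.5, 14.1, 22.9 and 10.7 scaled CPM (log2 fold change -0.66, edgeR adjusted p = 0.42). PEX7, the receptor for a smaller set of matrix proteins, had 13.0, 8.88, 11.4 and 11.5 (-0.26, adjusted p = 0.782). PEX14 (chromosome 6, 70737871 to 70872074), which docks these receptors at the membrane, had 17.1, 27.1, 18.0 and 36.5, the reverse of the order seen in PEX11A. Its log2 fold change of 0.86 (SE 0.41, adjusted p = 0.268) did not pass the test. PEX13, its docking partner, had 24.9, 13.3, 19.8 and 18.0 (-0.52, adjusted p = 0.527). Thus the members of the docking complex had opposite signs in these libraries, without either passing the test; their difference was not tested.

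PEX2 and PEX10, ring-finger proteins that ubiquitinate the import receptor, were lower in both transplanted kidneys. PEX2 stood at 20.7, 12.1, 17.9 and 9.46 scaled CPM and PEX10 at 50.1, 32.8, 42.6 and 28.7, with log2 fold changes of -0.84 (edgeR adjusted p = 0.297) and -0.59 (adjusted p = 0.434). PEX6, an ATPase that recycles the receptor, had the uncertain values 21.9, 41.8, 12.9 and 14.2 (0.68, adjusted p = 0.5), and without the transplanted CD39/CD55 library its log2 fold change was -0.30. PEX19, PEX3 and PEX16 bring membrane proteins to peroxisomes. PEX19 had 166, 77.6, 94.5 and 69.5 (-0.83, adjusted p = 0.319), and PEX3, with FUCA2 alongside, had 87.9, 42.0, 87.0 and 41.1 (-1.07, adjusted p = 0.154). PEX16 (chromosome 2, 16555045 to 16560777) had 23.9, 11.6, 6.08 and 6.86 (-0.70, adjusted p = 0.546). The untransplanted CD39/CD55 kidney stood above the other 3 libraries for PEX16, and without it the log2 fold change was 0.61.

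Neither regulator passed the test, and both had values of the opposite sign to most enzymes. PPARA (chromosome 5, 3302755 to 3321091) had only 30, 35, 57 and 79 counts, which limits its precision. Its levels of 2.18, 2.83, 4.50 and 7.63 scaled CPM followed the genotype as well as the state, and the groups overlapped. The log2 fold change of PPARA was 0.64 (SE 0.62, edgeR adjusted p = 0.603). PPARGC1A (chromosome 8, 17841844 to 18527953) had 142, 150, 220 and 356 scaled CPM, again with both CD39/CD46/CD55/TBM kidneys above both CD39/CD55 kidneys. Its log2 fold change was 0.48 (SE 0.51, edgeR adjusted p = 0.637). Without the transplanted CD39/CD46/CD55/TBM library these values were -0.24 and -0.27. For the 2 regulators, the count of 0 that passed was also 0 at an unadjusted p under 0.05, in DESeq2 and in limma voom.

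Taken one genotype at a time, there is 1 library on each side and no replicate check. A member was then called higher or lower when it differed by at least 2-fold and the 95% counting interval of the ratio excluded no change. In the CD39/CD55 genotype, 21 of the 38 members were called lower at 4 weeks and 0 higher, against 13.7% and 13.2% of all genes. In the CD39/CD46/CD55/TBM genotype, 26 were called lower at 6 weeks, and PEX14 was called higher with a log2 ratio of 1.02, against 16.3% and 15.9% of all genes. The mitochondrial medians were log2 ratios of -1.54 and -2.13, and 16 of the 18 mitochondrial members had the lower ratio in CD39/CD46/CD55/TBM. For the peroxisomal enzymes the medians were -0.70 and -2.35, while the peroxins had -0.77 and -0.44. Across the 38 genes the log2 ratios of the 2 genotypes, which share no library, had a Pearson r of 0.74 and a Spearman rho of 0.71, beside 0.56 and 0.55 across all 18168 genes. Within the 18 mitochondrial members alone they were 0.385 and 0.49, below the values of all genes. Within the 18 peroxisomal members they were 0.71 and 0.56. These are correlations across genes, which are not independent replicates, and all 4 libraries were scaled together. With total counts as library sizes the median of all genes in the CD39/CD55 pair moved by 0.13 on the log2 scale, and ACAA2, DECR1, PEX3, PEX16 and PEX19 then had log2 ratios of -0.97, -0.89, -0.93, -0.90 and -0.96, short of the 2-fold limit, while PEX6 was called higher at 1.06.

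**Figure D3:**
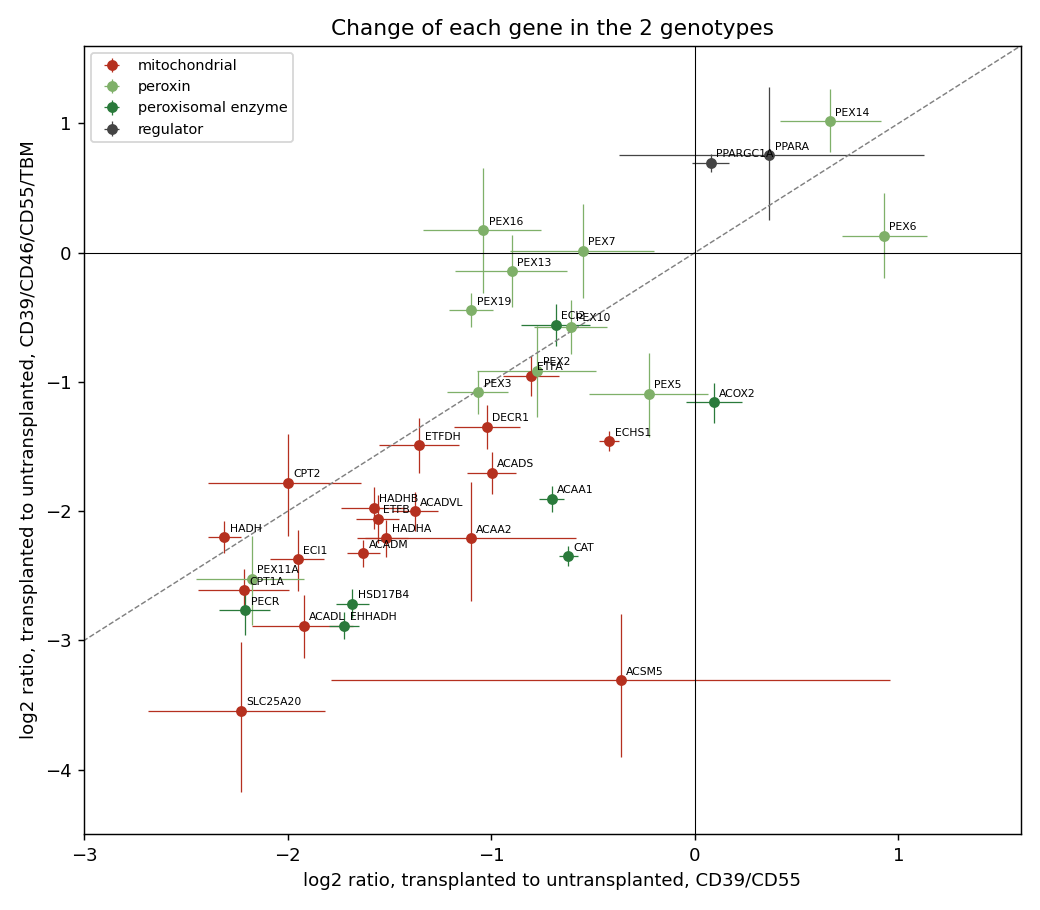
Log2 ratio of transplanted to untransplanted for each of the 38 genes in CD39/CD55 (x axis, 4 weeks) and CD39/CD46/CD55/TBM (y axis, 6 weeks), with 95% counting intervals as bars and a dashed line at equal ratios. Most genes lie in the lower left, CAT, ACOX2 and ACSM5 lie far below the line, and PEX16, PEX13 and PEX19 lie above it.

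The change with transplantation differed between the genotypes by more than 2-fold in 10 members. Written as the log2 ratio of transplanted to untransplanted in CD39/CD46/CD55/TBM minus that in CD39/CD55, it was called lower for 9 members and higher for 1, by the same rule of 2-fold and a 95% counting interval, against 11.5% and 10.3% of all genes. The 9 were 5 of the 7 peroxisomal enzymes, 4 mitochondrial members and no peroxin. CAT had log2 ratios of -0.62 at 4 weeks and -2.35 at 6 weeks, a difference of -1.73 (interval -1.81 to -1.64). ACOX2 had 0.09 and -1.16, a difference of -1.25 (-1.46 to -1.05). The values for ACAA1 were -0.70 and -1.91, with a difference of -1.20 (-1.32 to -1.08). EHHADH had -1.72 and -2.89, and HSD17B4 -1.68 and -2.71, so both were low in each genotype and lower still in CD39/CD46/CD55/TBM. Their differences were -1.16 (-1.29 to -1.04) and -1.03 (-1.17 to -0.90). The mitochondrial members were ACSM5, SLC25A20, ACAA2 and ECHS1, with differences from -2.95 to -1.03. PEX16 was the member called higher, with log2 ratios of -1.04 and 0.17 and a difference of 1.21 (0.67 to 1.75). These differences rest on 1 library per group and have no test against replicate spread, and genotype, weeks and recipient cannot be told apart in them.

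**Figure D4:**
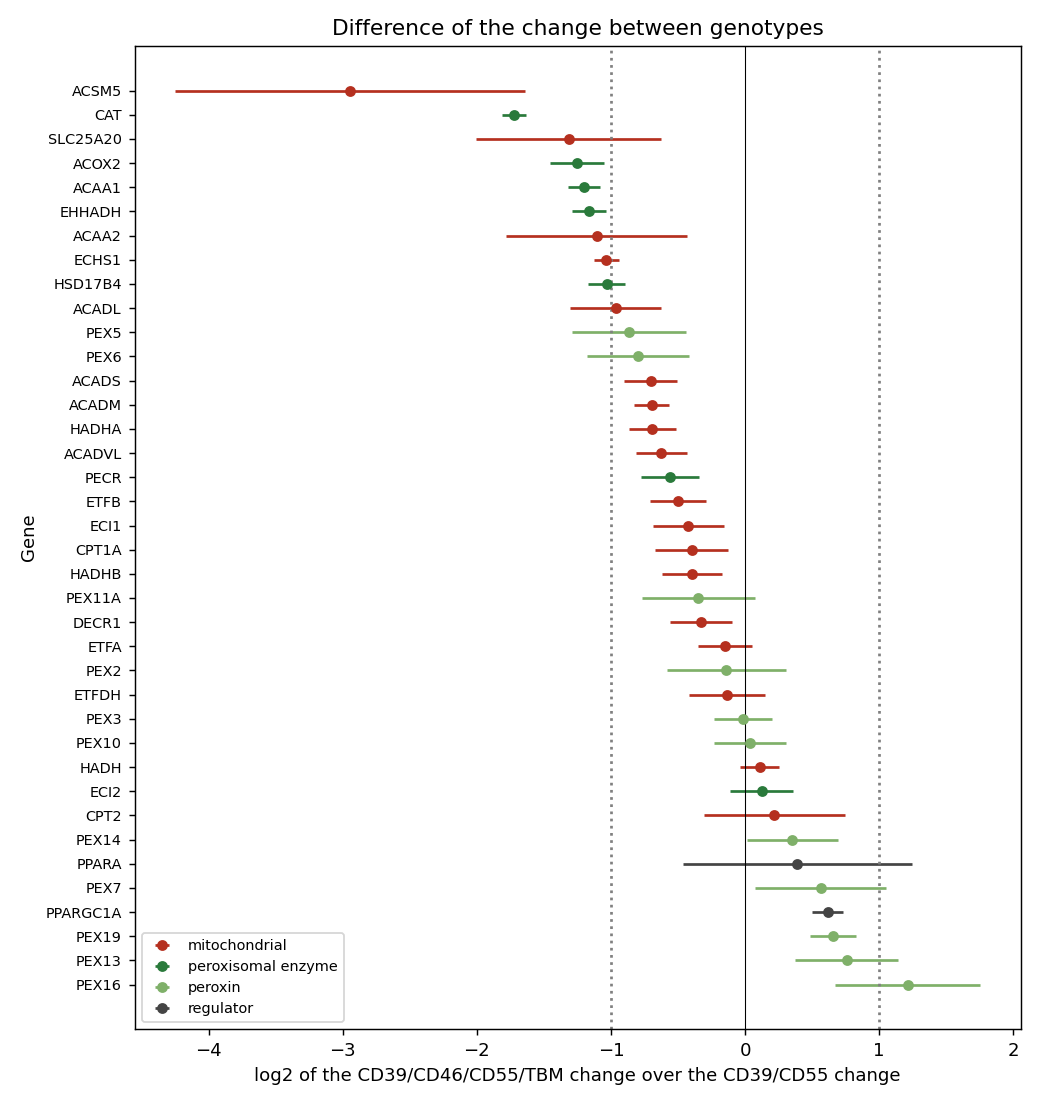
Difference between the genotypes in the log2 ratio of transplanted to untransplanted, CD39/CD46/CD55/TBM minus CD39/CD55 (x axis), for each of the 38 genes ordered by it (y axis), with 95% counting intervals and dotted lines at 2-fold. At the low end 5 of the 9 genes past the dotted line are peroxisomal enzymes, from CAT at -1.73 to HSD17B4 at -1.03, and at the high end only PEX16 passes it.

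Between the untransplanted kidneys of the 2 genotypes, 5 members were called higher in CD39/CD46/CD55/TBM and 3 lower, against 8.15% and 7.88% of all genes. The higher ones were CPT1A, ACSM5, ACADL, ACAA2 and PPARA. ACSM5 was the most unequal, with a log2 ratio of 4.93 (counting interval 4.20 to 5.91), beside 1.40 (1.29 to 1.50) for CPT1A. ACAA2 had 1.52 (1.19 to 1.86) and ACADL 1.15 (1.02 to 1.28). PPARA had 1.03 (0.38 to 1.73), and with a prior count of 2 its ratio of 0.99 was short of the 2-fold limit. The lower ones were HADH at -1.11 (-1.17 to -1.05), PEX16 at -1.97 (-2.35 to -1.62) and the uncertain ECI1 at -1.01. The median log2 ratio over the 38 members was -0.01, with 20 of them below 0.

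Between the transplanted kidneys, 3 members were called higher in CD39/CD46/CD55/TBM and 7 lower, with 11% of all genes in each direction. The higher ones included both regulators, PPARA at a log2 ratio of 1.42 (0.84 to 2.05) and PPARGC1A at 1.24 (1.16 to 1.33), besides ACSM5 at 1.98 (0.94 to 3.30). Among the lower ones, CAT had -1.57 (-1.65 to -1.50), EHHADH -1.04 (-1.16 to -0.92), ECHS1 -1.39 (-1.47 to -1.31) and ETFB -1.42 (-1.62 to -1.24). The other 3 were ACAA1, ECI1 and PEX6, whose counts are uncertain, so that 4 were called lower among members without an overlapping gene. In these 2 kidneys both regulators were thus higher in CD39/CD46/CD55/TBM, as they were between the untransplanted kidneys (log2 ratios of 1.03 for PPARA and 0.63 for PPARGC1A). Of the 7 peroxisomal enzymes, 6 had log2 ratios below 0 between the transplanted kidneys, ECI2 being the exception at 0.31. So did 12 of the 18 mitochondrial members and 9065 of all 18168 genes.

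Genes of the same pathways outside the 38 had a median of the same sign, with 0 rising. Among all genes tested, 2.71% fell and 1.24% rose. Of 16 measured among 18 other mitochondrial oxidation genes, 2 fell: ACSM4, a relative of ACSM5, at 158, 18.3, 178 and 3.96 scaled CPM (log2 fold change -3.91, edgeR adjusted p = 0.00629), and ACAD8, an enzyme of valine breakdown, at -1.78 (adjusted p = 0.0436). ACSM4 overlaps THUMPD1, which had 2789, 916, 2919 and 518 counts beside its 2175, 227, 2254 and 41. Among 42 measured of 44 other peroxisomal genes, 7 fell, namely HAO1, AMACR, DDO, PHYH, NUDT7, DAO and NUDT19. PHYH, which starts the oxidation of phytanic acid, had 3382, 471, 2998 and 252 (-3.14, adjusted p = 0.0119). HAO1, which oxidises glycolate, had 135, 19.3, 200 and 13.3 (-3.36, adjusted p = 0.00313). In both, the transplanted libraries lay far below the untransplanted ones. AMACR, which prepares branched chains for oxidation, had -2.93 (adjusted p = 0.0059), and DDO, which oxidises D-aspartate, had -2.67 (adjusted p = 0.00695). The median log2 fold change was -0.81 over the other mitochondrial list and -0.74 over the other peroxisomal list.

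Carnitine supply, ketone bodies and the targets of PPARA were examined in the same way. BBOX1, the last enzyme of carnitine synthesis, fell, at 165, 46.4, 207 and 39.1 scaled CPM (log2 fold change -2.12, edgeR adjusted p = 0.0185), and was the 1 of 11 measured genes of carnitine supply and fatty acid uptake to do so. An uncharacterised locus that overlaps BBOX1 had 1982, 347, 1734 and 179 counts beside its 2264, 575, 2620 and 405. SLC22A5, the plasma membrane carnitine transporter, had 78.0, 45.0, 72.9 and 78.9 and no shift common to both genotypes (-0.28, adjusted p = 0.749). Of 7 measured ketone body genes, 1 fell, where 2.71% of all genes tested did. The median log2 fold change was -1.38 over the carnitine supply and uptake list and -0.83 over the ketone body list. Among 8 measured PPARA targets outside the oxidation lists, 0 passed edgeR's test, DESeq2 or limma voom, and 3 were lower at an unadjusted p under 0.05. Their median was -1.34. Both transplanted libraries lay below both untransplanted ones in 5 and above in 1, against 25.5% and 26.3% of all genes. ANGPTL4 had 125, 50.1, 61.4 and 29.1 scaled CPM (-1.24, edgeR adjusted p = 0.17). PDK4, a kinase that turns off pyruvate dehydrogenase, had 624, 285, 422 and 61.3 (-1.59, adjusted p = 0.186), but the overlapping gene ASB4 had nearly the same counts, 8627, 3670, 5433 and 676 beside 8574, 3529, 5345 and 635.

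Of 21 measured among 22 other regulators, 0 passed edgeR's test, DESeq2 or limma voom, and 1 was higher and 1 lower at an unadjusted p under 0.05. Their median log2 fold change was 0.35. HNF4A, a transcription factor of proximal tubule identity, had 208, 275, 261 and 79.1 scaled CPM (log2 fold change -0.40, edgeR adjusted p = 0.725), lowest in the CD39/CD46/CD55/TBM graft. An uncharacterised locus that overlaps HNF4A had 1036, 699, 1874 and 129 counts beside its 2860, 3407, 3303 and 819. SIRT3, a mitochondrial deacetylase and the 1 that was lower at an unadjusted p under 0.05, had 18.6, 8.40, 21.1 and 6.47 (-1.42, adjusted p = 0.0937). NRF1, the 1 that was higher, had 16.3, 32.5, 24.2 and 59.2 (1.18, adjusted p = 0.165). PPARGC1B had 8.44, 17.6, 4.34 and 9.56 (1.09, adjusted p = 0.263). ESRRA, a nuclear receptor that works with PGC-1 alpha and whose gene overlaps TRMT112, had 203, 225, 162 and 118 (-0.09, adjusted p = 0.932), and its relative ESRRG had 178, 324, 287 and 571 (0.94, adjusted p = 0.312). Over all 105 measured genes of these 6 lists, 11 fell and 0 rose in edgeR's test, against 493 and 225 of all 18168 genes. At an unadjusted p under 0.05, 35 were lower and 1 higher, against 1946 and 1633 of all genes. DESeq2 called 23 lower and 0 higher, against 865 and 431. The counts in limma voom were 14 and 0, against 446 and 154.

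**Figure D5:**
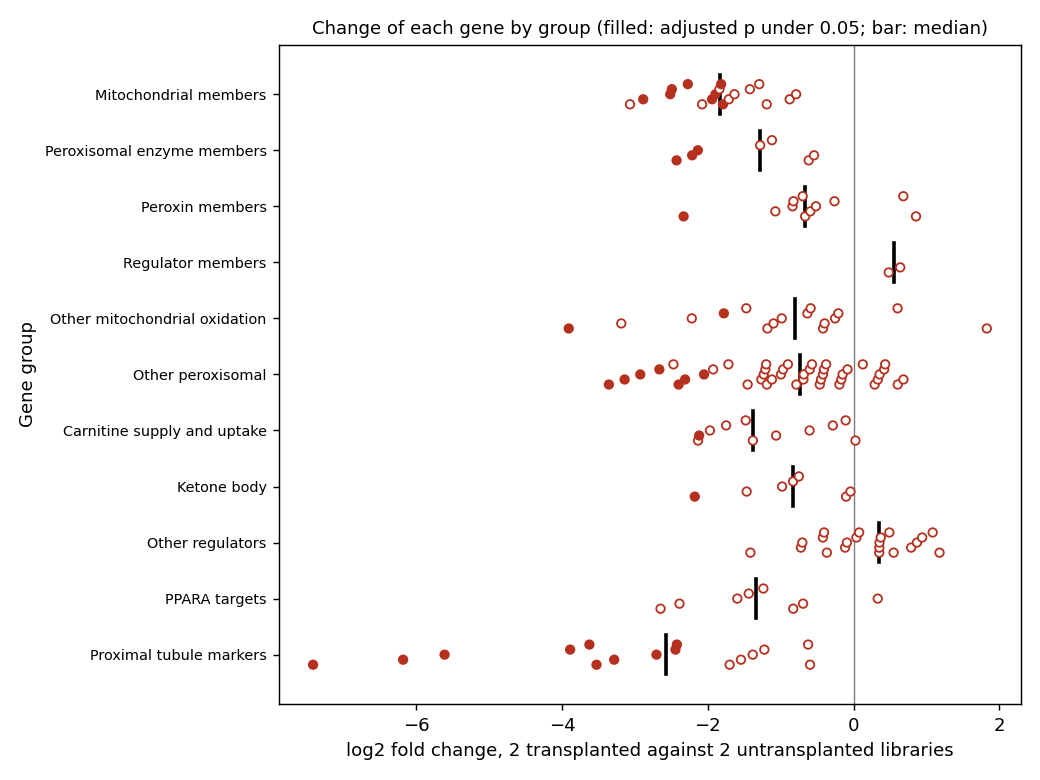
Log2 fold change of the 2 transplanted against the 2 untransplanted libraries (x axis) for each gene of the member groups, the other pathway lists and the proximal tubule markers (y axis); filled points passed edgeR's adjusted p of 0.05 and black bars are medians. Medians lie at -1.83 for mitochondrial members, -1.28 for peroxisomal enzymes, -0.66 for peroxins and -2.58 for proximal tubule markers, while both regulator groups have medians above 0.

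Markers of the proximal tubule moved with the members. Of 16 proximal tubule markers 10 fell and 0 rose, with a median log2 fold change of -2.58. Their summed level was 15180 and 16020 scaled CPM in the untransplanted kidneys, 7615 in the transplanted CD39/CD55 kidney and 3603 in the CD39/CD46/CD55/TBM graft, and SLC22A6 was at 0 in the last. By comparison, the summed level of the 38 members was 6118 and 5798 in the untransplanted kidneys and 2833 and 1819 in the transplanted ones. LRP2, the endocytic receptor megalin, had 1712, 212, 1658 and 80.3 (-3.53, edgeR adjusted p = 0.00825). The part of the proximal tubule markers' fall in the members' values was not tested.

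Markers of other cell types were read in the same fit. The thick ascending limb and distal tubule list had 3 of 8 that fell, the podocyte list 2 of 6, the endothelial list 1 of 6, and the collecting duct and fibroblast lists 0 of 7 each in edgeR's test; at an unadjusted p under 0.05, 2 collecting duct genes were higher, and 1 fibroblast gene was higher and 2 lower. DESeq2 called 1 collecting duct gene higher and 1 fibroblast gene lower, and limma voom 0 and 1. Pig leukocyte markers had 5 of 10 that fell, with summed levels of 70.6 and 64.4 scaled CPM untransplanted and 5.17 and 9.46 transplanted, and C1QC at 0 in both transplanted libraries. Of tissues rich in fatty acid oxidation, the defining liver gene ALB had 3, 5, 5 and 2 counts and the fat cell gene ADIPOQ had 2, 0, 1 and 1. Other genes listed for fat cells were measured, with FABP4 at 325, 90, 517 and 163 counts and CFD at 148, 242, 137 and 121. CKM, listed for muscle, had 16, 2, 7 and 2. Whether such tissue was present was not tested. TTR, listed for liver, had 72, 0, 215 and 0 counts.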

How the data were processed

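The 4 deposited tables, 1 per library, gave raw read counts per gene symbol. Libraries were made with a Lexogen QuantSeq kit from total RNA (phenol/chloroform), per the labels' protocols. Per the submitters' processing notes, Bowtie2, bedtools and the Sscrofa11.1 build were used; versions, strand setting and the treatment of reads with several matches were not given in the sources used here. Each table held 26965 lines and 26466 symbols, all matched to RefSeq names (Sscrofa11.1), of which 81 were on more than 1 line and were summed; no member was among them. Coordinates are those of RefSeq for that build. The 5 ribosomal RNA features were found by annotation or as unplaced loci with very high counts.

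Genes with at least 10 counts in at least 1 library were tested (18168) with edgeR 4.0.16 in R 4.3.3 (quasi-likelihood test, TMM scaling, 2 transplanted against 2 untransplanted libraries, 2 residual degrees of freedom, Benjamini-Hochberg adjustment, threshold 0.05). Standard errors are the absolute log2 fold change divided by the square root of F. Pairs of single libraries were compared as log2 ratios of TMM-scaled counts with a prior count of 0.5 and 95% exact conditional binomial (Clopper-Pearson) intervals, and differences of ratios with Wald counting intervals (Python 3.11.15, scipy 1.17.1). Both procedures were tested on simulated data. Alternatives were DESeq2 1.42.0 (its size factors, and its Wald test), limma 3.58.1 voom, genotype as a block, no filter, each library left out, ribosomal RNA and mitochondrial genes left out, and, for pairs, total counts and a prior count of 2. The comparison among members without an overlapping gene was added after seeing the data.

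All 38 members are named. Of each other pathway or regulator list, up to 5 genes with the smallest p were named, with PDK4, ACSL1, SLC22A5, HNF4A, PPARG and ESRRA allowed whatever their values, and of marker lists up to 3 with the highest counts; DAO, NUDT19, SLC22A6, TTR, ALB and ADIPOQ were named beyond it, after their values were seen. Some genes that the rule names are not reported here. The members and lists were chosen with earlier results of these data known.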

Additional observations from a re-analysis of the deposited data

Results flagged for a closer look

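In 3 members the 2 genotypes had log2 ratios of transplanted to untransplanted of opposite sign; with 1 library per group these differences were not tested. The difference, CD39/CD46/CD55/TBM minus CD39/CD55, was -1.25 for ACOX2, 0.57 for PEX7 and 1.21 for PEX16. For ACOX2 the ratio above 0 was 0.09 in CD39/CD55 (95% counting interval -0.04 to 0.23), for PEX7 it was 0.02 in CD39/CD46/CD55/TBM (-0.35 to 0.38), and for PEX16 it was 0.17 in CD39/CD46/CD55/TBM (-0.31 to 0.66), so each of these intervals includes no change.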

How the results depend on the processing

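SLC25A20, ACADL, PECR and PEX11A kept their direction and their call in all 10 alternative settings, and the count of members that rose was 0 in each. With genotype as a block, 23 members fell in place of 12 (16 mitochondrial, 7 peroxisomal), and 1124 genes rose and 1681 fell in place of 225 and 493. DESeq2's Wald test gave 13 mitochondrial members that fell in place of 8, and 431 genes that rose and 865 that fell. Without the filter on low counts these were 14, 543 and 1035. Leaving out 1 library at a time, 9 to 19 members fell, 6 to 13 of them mitochondrial and 2 to 6 peroxisomal, with 188 to 1055 genes rising and 410 to 1374 falling; the lone library left on one side is assumed to vary like the pair on the other. With 1 library left out the log2 fold change reversed for 5 members that had not passed the test: it ranged from -4.40 to 0.95 for ACSM5 (reversed without the untransplanted CD39/CD46/CD55/TBM sample), from -0.30 to 1.26 for PEX6 (without the transplanted CD39/CD55 sample), from -1.37 to 0.61 for PEX16 (without the untransplanted CD39/CD55 sample), and from -0.24 to 1.25 for PPARA and -0.27 to 0.98 for PPARGC1A (both without the CD39/CD46/CD55/TBM graft); the causes were not tested. With total counts, 1 member was called higher in the CD39/CD55 pair in place of 0, ACADL was called in the difference between genotypes (-1.04), and HADH and PECR between the transplanted kidneys (-1.10 and -1.01); with DESeq2 size factors ACADS was called lower in the CD39/CD55 pair (-1.01). Among members without an overlapping gene, 4 in place of 7 were called lower between the transplanted kidneys, by having fewer members. The fit with genotype as a block is the one that pairs transplanted with untransplanted libraries; the labels give no replicate numbers to pair by. The lowest counts of any member were 9 for ACSM5, 28 for SLC25A20, 30 for PPARA and 43 for ACAA2, where counting error is largest.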
